A study of Mus musculus with 8 samples.

Results

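The transcripts of 6 matrix metalloproteinases (Mmp2, Mmp3, Mmp9, Mmp12, Mmp13 and Mmp14) and of their 4 tissue inhibitors (Timp1, Timp2, Timp3 and Timp4) were examined in activated primary microglia. The members were found by gene symbol, and all 10 were present among the 31406 genes of the count table. RNAseq had been performed on 8 primary cultures from wild-type C57/BL6 mouse pups of 2 to 4 days of age, grown from the striatum for 15 days. Lipopolysaccharide (LPS) and interferon-γ, the latter listed as human in the reagents of the study, were then present in all 8 cultures over 48 h, and the ligands were given 24, 32 and 40 h into this activation. The A2A antagonist group (n = 4) received SCH 58261, a selective antagonist of the adenosine A2A receptor, and the dual group (n = 4) received SCH 58261 together with 200 nM 2-Cl-IB-MECA, a selective agonist of the adenosine A3 receptor. The grouping follows the sample titles, whereas the treatment field of the labels names 2-Cl-IB-MECA in the other group, so every direction below rests on the titles. The columns of the count table name the groups as the titles do. The pups came from 4 pregnant animals, and which cultures came from which litter was not given, so the p-values measure the spread between these libraries, which may be partly technical. Activated cultures that received only vehicle were not analysed here.

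Matrix metalloproteinases are zinc-dependent endopeptidases that are made as inactive precursors, are activated by removal of a propeptide, and cut collagens, laminins, proteoglycans, cytokines and other proteases outside the cell. The TIMP proteins block them by inserting their amino end into the active site, so that the level of free enzyme depends on both families. In the inflamed brain, metalloproteinases of microglia, astrocytes and vascular cells are known for opening the blood-brain barrier and for processing cytokines such as TNF.

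The sequence that defines each side of this pair of families is shown first, because it marks where enzyme and inhibitor meet. It was read from the coding sequence of the longest coding transcript of each gene in GENCODE M21 (build GRCm38). In the metalloproteinases the capitals mark the codons of the 3 histidines that hold the catalytic zinc and of the glutamate that takes part in catalysis. These 33 bases lie within 1 exon in each gene, at chr8:92839279-92839311 for Mmp2, chr9:7449775-7449807 for Mmp3, chr2:164951133-164951165 for Mmp9, chr9:7352914-7352946 for Mmp12, chr9:7276573-7276605 for Mmp13 and chr14:54437627-54437659 for Mmp14, all on the plus strand.
Mmp2: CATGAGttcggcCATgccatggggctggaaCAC
Mmp9: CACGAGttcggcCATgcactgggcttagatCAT
Mmp3: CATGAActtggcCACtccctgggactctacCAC
Mmp12: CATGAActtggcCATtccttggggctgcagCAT
Mmp13: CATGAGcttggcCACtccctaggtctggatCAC
Mmp14: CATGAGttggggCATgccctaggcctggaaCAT

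In Mmp2 and Mmp9, the gelatinases, this stretch falls in exon 8 of 13, and in the other four it falls in exon 5 of 10. The number of identical bases out of 33 ran from 20 for Mmp3 and Mmp9 to 27 for Mmp3 and Mmp13 and for Mmp2 and Mmp14. In the inhibitors the capitals mark the codons of the cysteine that begins the mature protein, which binds the catalytic zinc, and of the next cysteine. These 27 bases lie at chrX:20871111-20871137 (plus strand, exon 2 of 6) for Timp1, chr11:118354986-118355012 (minus strand, exon 1 of 5) for Timp2, chr10:86300923-86300949 (plus strand, exon 1 of 5) for Timp3 and chr6:115251665-115251691 (minus strand, exon 1 of 5) for Timp4.
Timp1: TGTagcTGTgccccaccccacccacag
Timp2: TGCagcTGCtccccggtgcacccgcaa
Timp3: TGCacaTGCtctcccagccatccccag
Timp4: TGCagcTGTgcgcctgcgcacccccag

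Library totals, in units of 1e6 counts, lay between 38.4 and 45.9 for the A2A antagonist and between 32.6 and 45.5 for the dual treatment. All 10 microglial markers were detected in every library, with a summed level of 1003 to 1118 CPM (counts per 1e6 counts). Markers of astrocytes summed to 6087 to 6624 CPM (8 of 8 detected) and markers of fibroblasts to 2369 to 2986 CPM (6 of 6 detected). Both sums stood above that of the microglial markers in every library. Mural (202 to 233 CPM, 6 of 6), oligodendrocyte (222 to 258 CPM, 7 of 7), endothelial (49.0 to 62.2 CPM, 5 of 5 in the table) and neuronal markers (26.4 to 30.3 CPM, 5 of 5) were lower. Of the neutrophil markers 3 were in the table, with a sum of 6.99 to 9.29 CPM. The lists differ in their number of genes, and these CPM were not divided by length, so the sums do not measure shares of cells. The study reported a high purity of microglia after labelling of CD11b. Several metalloproteinases and TIMPs are known products of astrocytes and fibroblasts, and which cells gave the transcripts described here was not tested. In such bulk samples, fewer cells of a type and less RNA per cell cannot be told apart.

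Compared per length, Mmp3 and Timp1 were the most abundant enzyme and inhibitor transcripts. The level per length is given in CPM per kilobase of the exonic length in the deposited table, as mean ± SD over the 8 libraries. This length covers the exons of all annotated transcripts of a gene together, and which of these were expressed was not tested. The order, shares and ratios below therefore depend in part on the annotation. Mmp3, which encodes stromelysin-1, an enzyme that cuts proteoglycans and activates other pro-metalloproteinases, had 882 ± 55.0 CPM per kilobase (SD, n = 8) and was 25th of the 18756 genes tested. Timp1, the secreted inhibitor that also binds the precursor of Mmp9, followed with 453 ± 20.5 CPM per kilobase (SD, n = 8), and Timp2, which inhibits and also helps to activate pro-Mmp2, with 167 ± 2.75 CPM per kilobase (SD, n = 8). Thus the first 3 of the members were an enzyme and a pair of inhibitors, and their ranges over the 8 libraries did not overlap. Mmp13, the main interstitial collagenase of the mouse, had 114 ± 9.05 CPM per kilobase (SD, n = 8).

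The next places were closer to each other. Mmp9 had 60.0 ± 10.4, Timp3 42.7 ± 2.41 and Mmp14 40.9 ± 1.59 CPM per kilobase (SD, n = 8), and here the range of Mmp9 overlapped that of Timp3, and the range of Timp3 overlapped that of Mmp14. The lowest levels per length were 21.8 ± 2.08 for Mmp2, 8.21 ± 0.660 for Mmp12 and 5.28 ± 0.305 CPM per kilobase for Timp4 (SD, n = 8), each without overlap with its neighbours. Even so, Timp4 was above 56.9% of the genes tested per length, and the members had between 954 and 74285 counts per library, so all 10 passed the low-count filter and none did so through a single group.

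**Figure D1:**
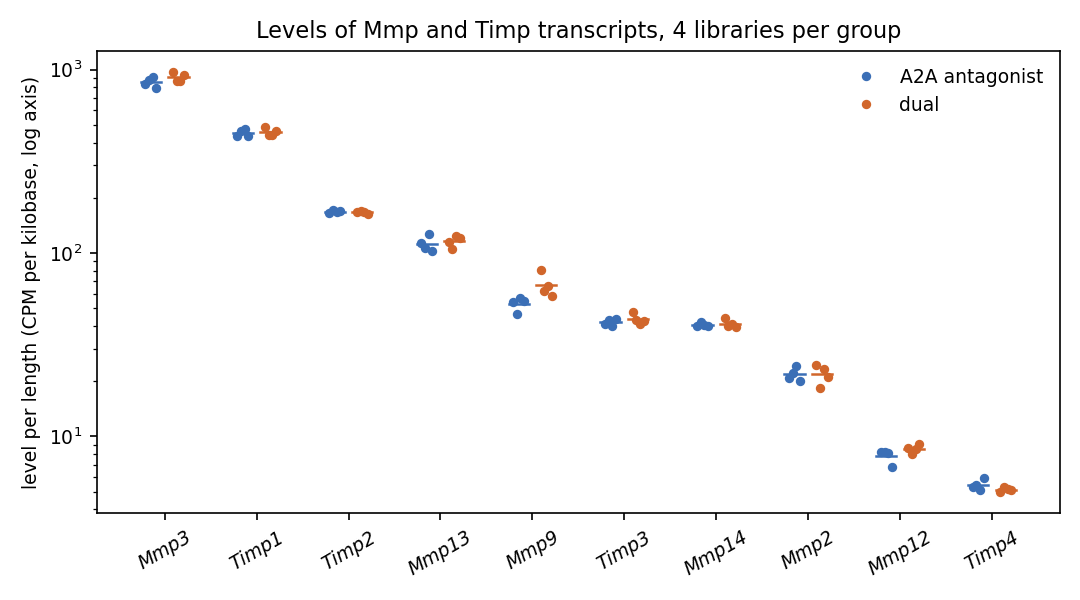
Level per length (CPM per kilobase, log axis) of the 10 members in decreasing order, with a dot for each of the 4 A2A antagonist (blue) and 4 dual (orange) libraries and a line at the group mean. The order runs from Mmp3 (mean 882) to Timp4 (mean 5.28), and the groups are apart only for Mmp9.

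Within the enzymes, Mmp3 made up 78.4% ± 0.730 (SD, n = 4) of the summed level per length of the 6 genes in the A2A antagonist group and 78.1% ± 1.00 (SD, n = 4) in the dual group. Timp1 made up 67.7% ± 1.13 (SD, n = 4) and 67.9% ± 0.977 (SD, n = 4) of the summed level of the 4 inhibitors, and Timp2 25.2% ± 0.712 (SD, n = 4) and 24.8% ± 1.03 (SD, n = 4). The make-up of either family thus differed between the groups by less than the spread between libraries for these 3 genes. Mmp9 took 4.87% ± 0.472 (SD, n = 4) of the enzyme sum under the antagonist and 5.74% ± 0.646 (SD, n = 4) when both ligands were given. The ratio of the enzyme sum to the inhibitor sum was 1.67, 1.60, 1.70 and 1.57 in the A2A antagonist libraries and 1.77, 1.68, 1.73 and 1.76 in the dual libraries. These ratios overlapped, since the lowest dual library lay below the highest A2A antagonist library, and as a score over the members they were not tested. Without Mmp3 the ratio was 0.353 ± 0.0201 (SD, n = 4) and 0.380 ± 0.0199 (SD, n = 4).

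The question put to the 2 groups was whether these transcripts differ when the A3 receptor agonist is added to the A2A receptor antagonist. None of the 10 members passed an adjusted p-value of 0.05 in edgeR, where 39 of the 18756 genes tested (0.208%) did, and the counts of called members were also 0 with DESeq2 and with limma-voom. An unadjusted p-value under 0.05 was reached by 2 members, Mmp9 and Mmp12, both with the larger mean in the dual group, and by 12.8% of all genes tested. The largest difference was that of Mmp9, with a log2 fold change of 0.34, and it missed the threshold with an adjusted p-value of 0.0651. The 95% intervals of the other nine lay entirely within 1.2-fold in either direction. Of the 10 members, 7 had a positive and 3 a negative log2 fold change (dual against A2A antagonist), with a median of 0.036, beside a median of 0.0038 over all genes tested.

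Mmp9 (ENSMUSG00000017737, chromosome 2, 164940780 to 164955850) encodes gelatinase B, which cuts denatured collagen and basement membrane collagen IV and is released by activated myeloid cells. Its levels were 191, 164, 202 and 193 CPM in the A2A antagonist libraries and 287, 220.0, 234 and 206 CPM in the dual libraries. All 4 dual libraries lay above all 4 A2A antagonist libraries, although the lowest dual library (206 CPM) was close to the highest A2A antagonist library (202 CPM). Of all genes tested, 3.36% were likewise higher without overlap and 7.42% did not overlap in either direction, while Mmp9 was 1 of 10 members. The group levels of 188 ± 16.3 and 237 ± 35.3 CPM (SD, n = 4) correspond to a fold change of 1.26 with a 95% interval of 1.13 to 1.41. The log2 fold change was 0.34 (SE 0.076), the unadjusted p-value was 0.000346, and Mmp9 was 93rd of all genes by p-value. Among the 11051 genes whose mean log2 CPM reached 3, 0.271% differed at least as much in size.

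The call of Mmp9 depended on the setting. Its log2 fold change lay between 0.23 (without dual replicate 1) and 0.40 (without dual replicate 4), and in the second case it was called with an adjusted p-value of 0.0429. Without the low-count filter its adjusted p-value was 9.71e-06, and without A2A antagonist replicate 2 it was 0.203. These last 2 were the lowest and the highest of its adjusted p-values over all alternatives run. The ratio of Mmp9 to Timp1 per length was 0.124, 0.0999, 0.120 and 0.127 with the antagonist and 0.167, 0.142, 0.151 and 0.127 with both ligands. The lowest dual library was here just above the highest A2A antagonist library.

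**Figure D2:**
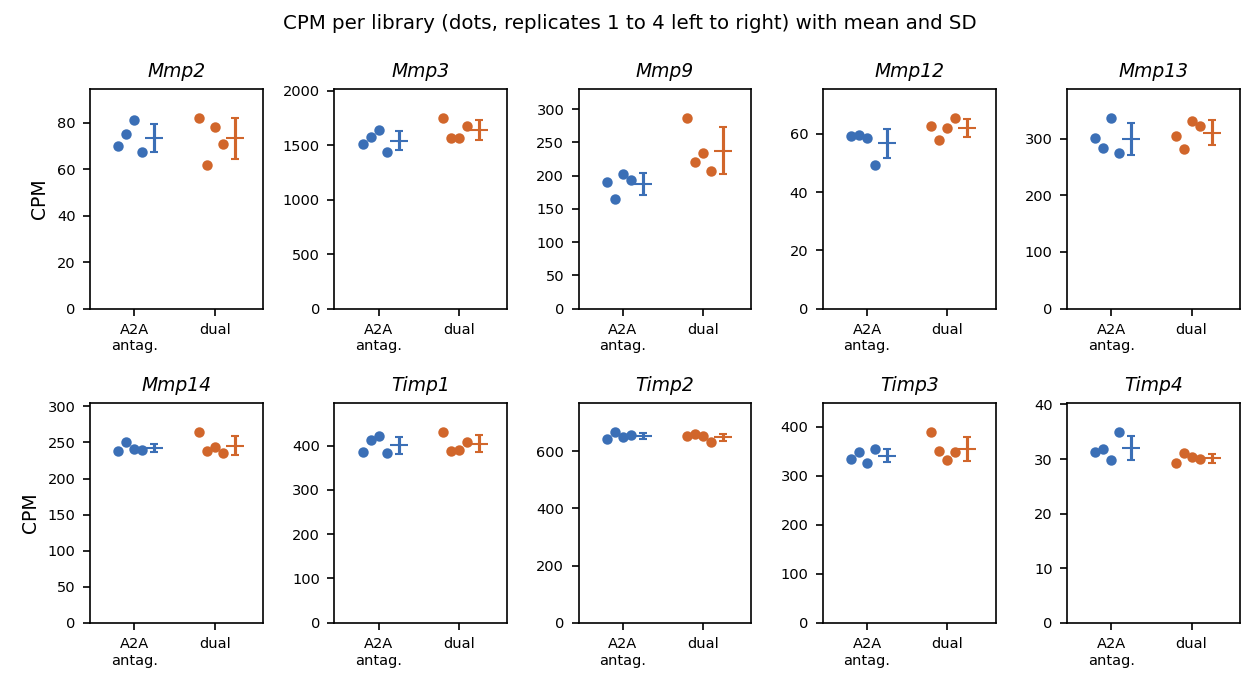
CPM of each member by library (axes from 0), with dots for replicates 1 to 4 from left to right in each group, and the group mean with its SD beside them. Mmp9 lies between 164 and 202 CPM in the A2A antagonist libraries and between 206 and 287 CPM in the dual libraries, whereas the groups overlap for the other nine members.

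The second gelatinase showed no such separation. Mmp2 (ENSMUSG00000031740, chromosome 8, 92827291 to 92853420), which encodes gelatinase A, an enzyme made mainly by mesenchymal cells and astrocytes, had 69.9, 75.0, 81.1 and 67.5 CPM with the antagonist and 82.3, 62.1, 78.2 and 71.1 CPM with both ligands. The group means were both 73.4 CPM (SD 6.04 and 8.86, n = 4), with a fold change of 1.00 and a 95% interval of 0.903 to 1.11. Mmp14 (ENSMUSG00000000957, chromosome 14, 54431612 to 54445364) encodes MT1-MMP, the membrane-bound enzyme that activates pro-Mmp2 in a complex with Timp2. It had 238, 251, 241 and 239.8 CPM in the A2A antagonist libraries and 265, 238, 243 and 236 CPM in the dual libraries. Apart from dual replicate 1 the Mmp14 values of both groups lay in the same range, and the fold change was 1.01 (95% interval 0.959 to 1.07).

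The genes Mmp3, Mmp12 and Mmp13 lie within 183.5 kilobases of chromosome 9. Mmp3 (ENSMUSG00000043613, 7445822 to 7455975) had 1509, 1573, 1642 and 1435 CPM with the antagonist and 1752, 1565, 1561 and 1676 CPM with both ligands. The groups overlapped, and the fold change of 1.06 had a 95% interval of 1.00 to 1.13 (unadjusted p-value 0.0516, adjusted p-value 0.396). Mmp12 (ENSMUSG00000049723, 7344381 to 7369499), the elastase of macrophages, had 59.2, 59.6, 58.7 and 49.3 CPM in the A2A antagonist libraries and 62.7, 57.9, 62.0 and 65.6 CPM in the dual libraries. A2A antagonist replicate 4 was low and dual replicate 4 was high, while the other six libraries lay between 57.9 and 62.7 CPM. The log2 fold change of Mmp12 was 0.13 (SE 0.055, unadjusted p-value 0.0295, adjusted p-value 0.322), and it was 0.069 without that low library. Mmp13 (ENSMUSG00000050578, 7272514 to 7283331) had 301, 283, 337 and 274 CPM against 306, 281, 332 and 323 CPM, with a fold change of 1.04 (95% interval 0.957 to 1.13). The values of Mmp13 varied as much within a group as between the groups.

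Among the inhibitors no member was separated between the groups. Timp1 (ENSMUSG00000001131, chromosome X, 20870166 to 20874735), which lies within Syn1 on the opposite strand without shared exonic bases, had 384, 413, 421 and 384 CPM with the antagonist and 431, 389, 390.0 and 408 CPM with both ligands. Its fold change was 1.01 with a 95% interval of 0.953 to 1.07. Timp2 (ENSMUSG00000017466, chromosome 11, 118301069 to 118355740) had 642, 668, 650.2 and 657 CPM against 652, 659, 652 and 633 CPM. It was the steadiest member, with a coefficient of variation of 1.69% and 1.73% in the groups, and its fold change of 0.992 had a 95% interval of 0.950 to 1.04.

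Timp3 (ENSMUSG00000020044, chromosome 10, 86300372 to 86349506), the inhibitor that binds the extracellular matrix and also blocks ADAM proteases, had 333, 349, 327 and 354 CPM in the A2A antagonist libraries and 389.6, 351, 333 and 348 CPM in the dual libraries. Only dual replicate 1 lay above the range of the A2A antagonist group, and the fold change was 1.04 (95% interval 0.979 to 1.11). Timp4 (ENSMUSG00000030317, chromosome 6, 115241892 to 115252205) had 31.3, 31.9, 29.9 and 35.0 CPM with the antagonist and 29.2, 31.2, 30.3 and 29.9 CPM with both ligands. Of the 10 members it had the most negative log2 fold change, -0.086 (SE 0.051, unadjusted p-value 0.107, adjusted p-value 0.508), and the groups overlapped.

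**Figure D3:**
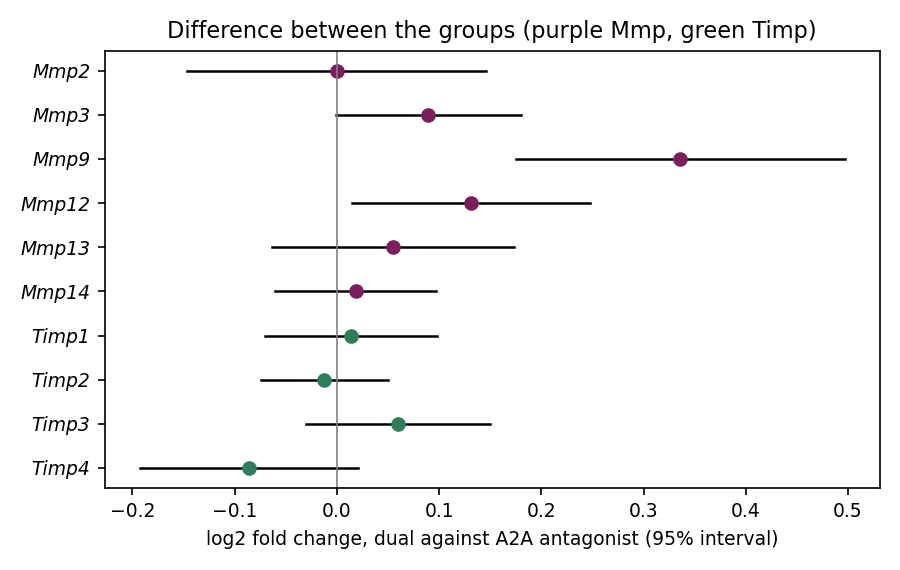
Log2 fold change of each member (dual against A2A antagonist) with its 95% interval from the edgeR fit. The point of Mmp9 lies at 0.34 with an interval above 0, that of Mmp12 at 0.13, and the other eight intervals include 0.

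Overlap or shared sequence with other genes could affect part of these counts. Of the exonic bases of Timp3, 21.3% overlap Syn3 on the opposite strand, and whether the counting used strand was not stated. How reads in shared bases were treated was not stated either. If such reads were left out, the counts of both genes, and the level of Timp3 per length, would be too low. Syn3 itself had 71 to 114 counts per library, where Timp3 had at least 12711. Timp4 lies inside Syn2 on the opposite strand and shares 1.53% of its exonic bases with it. Syn2 had 1255 to 1675 counts per library, about as many as Timp4 with 954 to 1589. Mmp12 shares 2.17% of its exonic bases with Mmp1b, which had 0 to 5 counts. Of the 31-base words of the Mmp3 transcript 14.6% occur in other genes, foremost in its close relative Mmp10, which had 9 to 31 counts per library. No 31-base word of Mmp2, Mmp9, Mmp13, Timp1 or Timp2 occurs in another gene.

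One library was often the highest. In dual replicate 1, which also had the lowest total count, 6 of the 10 members (Mmp2, Mmp3, Mmp9, Mmp14, Timp1 and Timp3) had their largest CPM of the 8 libraries. The summed fibroblast markers were 2986 CPM in this library and 2369 to 2760 CPM in the other seven, and the summed microglial markers were 1003 CPM there and 1021.6 to 1118 CPM elsewhere. Across the groups, the summed fibroblast markers ranged from 2379 to 2652 CPM with the antagonist and from 2369 to 2986 CPM with both ligands. None of the 6 fibroblast markers was called in edgeR. An unadjusted p-value under 0.05 was reached by 3 of these fibroblast markers, with the larger mean in the dual group, beside 12.8% of all genes tested in either direction. The summed microglial markers were 1093 ± 34.0 CPM with the antagonist and 1031 ± 24.4 CPM with both ligands (SD, n = 4). Of the 10 microglial markers, C1qa, a subunit of the complement component C1q, fell by 0.24 on the log2 scale (SE 0.040, adjusted p-value 0.0240, edgeR), from 434 to 502 CPM in the A2A antagonist libraries to 386 to 412 CPM in the dual libraries. It was the only microglial marker called, beside 0.208% of all genes tested. At an unadjusted p-value under 0.05, 2 microglial markers including C1qa had the smaller mean in the dual group and 1 the larger. Over all genes tested this share was 12.8% in either direction. The median log2 fold change of the 10 microglial markers was -0.021. The part of these marker differences in the values of the members was not tested. Without dual replicate 1, the log2 fold change was 0.23 for Mmp9, 0.055 for Mmp3 and 0.012 for Timp3, and it turned to -0.018 for Timp1 and -0.020 for Mmp14, with a median of -0.0013 over the members.

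A2A antagonist replicate 4 held the lowest CPM of the 8 libraries for 4 members (Mmp3, Mmp12, Mmp13 and Timp1). When it was left out, the log2 fold change was 0.057 for Mmp3, 0.069 for Mmp12, 0.015 for Mmp13 and -0.0066 for Timp1, with a median of 0.014 over the members.

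For orientation, the 3 genes most like each member over the 8 libraries were taken, by Pearson's r of log2 CPM among 11050 genes. For Mmp9 they were Tubgcp3, Uhrf1bp1 and Cntrl (r = 0.968, 0.961 and 0.950), and for Mmp2 Scarf2, Smoc1 and Rbmxl1 (r = 0.957, 0.946 and 0.946). For Mmp14 they were Col1a1, P3h3 and Proser1 (r = 0.979, 0.964 and 0.947), of which Col1a1 is one of the fibroblast markers and P3h3 encodes a collagen-modifying enzyme. Mmp3 and Timp1 shared Csf3, a growth factor of granulocytes, among their closest genes (r = 0.922 and 0.931), beside Flrt2 and Acvrl1 for Mmp3 (r = 0.941 and 0.919) and Dclre1a and R3hdm4 for Timp1 (r = 0.919 and 0.902). The closest genes were Ppil4, Lama4 and Uhrf1bp1l for Mmp12 (r = 0.973, 0.962 and 0.957) and March1, Tsen15 and Ahcyl1 for Mmp13 (r = 0.990, 0.956 and 0.950). Those of the remaining inhibitors were Psd, Atf6b and Aldoa for Timp2 (r = 0.987, 0.975 and 0.973), Kmt2b, A4galt and Col5a2 for Timp3 (r = 0.971, 0.966 and 0.953) and Trmt1l, Rnaseh2c and Oaz2 for Timp4 (r = 0.958, 0.955 and 0.950). With 8 points that share 2 treatments and the best of many genes taken, these values are a description only.

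The surrounding protease system was examined with 5 lists of 65 related genes, of which 56 passed the low-count filter. Only 1 of them was called, Serpinb2 among the genes of plasminogen activation and the serpins, beside 0.208% of all genes tested. Of the related genes 9 had an unadjusted p-value under 0.05 with the larger mean in the dual group and 4 with the smaller, beside 12.8% of all genes in either direction. Serpinb2 (ENSMUSG00000062345, chromosome 1, 107511423 to 107535478) encodes plasminogen activator inhibitor 2, a serpin of activated macrophages that blocks urokinase. It had 16.5, 14.6, 14.5 and 16.2 CPM with the antagonist and 21.0, 21.8, 18.0 and 19.9 CPM with both ligands. The groups did not overlap, as for 3.36% of all genes tested in this direction. Serpinb2 rose by 0.38 on the log2 scale (SE 0.068) with an adjusted p-value of 0.0246. This call was lost when A2A antagonist replicate 2, 3 or 4 was left out (adjusted p-values 0.0890, 0.0811 and 0.0932), and also when dual replicate 1, 2 or 3 was left out (0.0516, 0.0618 and 0.0604).

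Of the genes of plasminogen activation, 7 of 9 passed the filter, 4 with a positive and 3 with a negative log2 fold change (median 0.0055). Plat, the tissue plasminogen activator that turns plasminogen into plasmin, had 205 ± 5.62 and 206 ± 8.47 CPM (SD, n = 4), and Serpine2, a serpin that blocks thrombin and plasminogen activators, had 347 ± 2.53 and 328 ± 7.63 CPM (SD, n = 4). Serpine2 did not overlap between the groups, like 7.42% of all genes tested in either direction. Its log2 fold change was -0.082 (SE 0.030, adjusted p-value 0.244). Of the 12 other metalloproteinases tested, Mmp15 and Mmp11 were the most abundant per length, with 12.1 and 9.87 CPM per kilobase, between Mmp2 and Mmp12 in the order of the members. Mmp15 had 64.8 ± 2.32 and 66.2 ± 5.50 CPM and Mmp11 26.5 ± 1.82 and 28.3 ± 2.64 CPM (SD, n = 4). The median log2 fold change of the 12 other metalloproteinases was 0.023, and none of these 12 reached an unadjusted p-value under 0.05.

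All 8 ADAM proteases, membrane-bound shedding enzymes, had positive log2 fold changes (median 0.064), as had 9664 of the 18756 genes tested. An unadjusted p-value under 0.05 was reached by 3 of them, beside 12.8% of all genes tested in either direction. Adam8, which is expressed on activated myeloid cells, had 262, 268, 261 and 264 CPM with the antagonist and 299.7, 298, 291 and 280.2 CPM with both ligands. As with Mmp9 and with 3.36% of all genes tested, all dual libraries lay above all A2A antagonist libraries. The log2 fold change of Adam8 was 0.15 (SE 0.032, adjusted p-value 0.0606). Adam8 was called with DESeq2 (0.00104), without the low-count filter (0.0189), with library totals only (0.0465) and without dual replicate 4 (0.0318), and its highest adjusted p-value over the alternatives was 0.179. Adam9 had 189 ± 5.27 and 192 ± 6.79 CPM (SD, n = 4).

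The 16 ADAMTS proteases tested, which cut proteoglycans and procollagens, had a median log2 fold change of 0.067. Of these values 13 were positive and 3 negative, beside 9664 and 9092 over all genes tested. Adamts1 had 83.2 ± 8.07 and 91.7 ± 5.32 CPM, and the aggrecanase Adamts4 had 65.3 ± 3.66 and 58.2 ± 4.20 CPM (SD, n = 4). For Adamts4 this is a log2 fold change of -0.17 (SE 0.051, adjusted p-value 0.157). Of the activators, docking proteins and further inhibitors 13 were tested, with a median of 0.045. None was called in edgeR. An unadjusted p-value under 0.05 was reached by 3 with a positive and 2 with a negative log2 fold change, beside 12.8% of all genes tested. The most abundant per length was Lcn2, which encodes lipocalin-2, whose human form binds MMP9 in a stable complex, with 7330 ± 470.3 and 6841 ± 321 CPM (SD, n = 4). Its log2 fold change was -0.10 (adjusted p-value 0.319). Bsg, which encodes the metalloproteinase inducer basigin, had 598 ± 21.7 and 574 ± 18.7 CPM (SD, n = 4) with an adjusted p-value of 0.486.

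**Figure D4:**
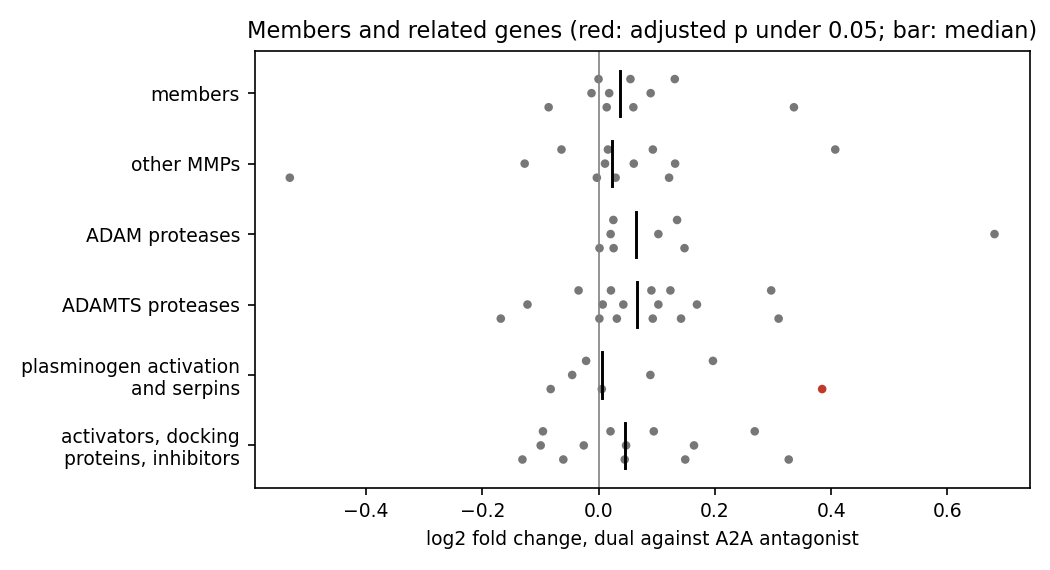
Log2 fold change (dual against A2A antagonist) of the 10 members and of each related gene that passed the low-count filter, 1 dot per gene, with a bar at the median of each list and red for an adjusted p-value under 0.05. The only red dot is Serpinb2 at 0.38, and the medians lie between 0.0055 and 0.067.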

How the data were processed

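RNAseq of 8 mouse microglial cultures was read from the deposited tables. According to the methods of the study and the labels, the authors aligned paired-end reads with HISAT2 and obtained raw counts per gene with featureCounts 1.5.0-p3 (mm10), without pooling replicates. The FPKM values in the deposited table, computed by the authors from counts and gene length, served only as an alternative for levels. The deposited fold changes and p-values of the authors' own comparisons were not used. The 9 columns of per-sample values that belong to no sample of the series were not used either. The counts of the A2A antagonist libraries were identical in both tables (0 differing values over 30302 shared genes), and no pair of libraries of a group agreed within sampling noise (chi-square per degree of freedom 3.78 to 9.32). Whether the counting used strand was not stated.

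The counts went into edgeR 4.0.16 under R 4.3.3 (filterByExpr with minimum count 10, TMM scaling, quasi-likelihood F test without covariates, two-sided, Benjamini-Hochberg adjustment over all 18756 genes tested, threshold 0.05). Standard errors and 95% intervals were derived from the F statistics. CPM were scaled with the TMM factors and divided by the exonic length for levels per length, and log2 CPM used a prior count of 2. The positions of all 10 members were the same in GENCODE M21 (GRCm38). The script was tested on simulated data.

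All members, every called gene and the 2 most abundant genes per length of each related list, and the 3 most alike genes of each member are named. The members, lists and tests were chosen with earlier results of these data known, and the cell type lists are markers of microglia, astrocytes, fibroblasts, mural cells, endothelial cells, oligodendrocytes, neutrophils and neurons. DESeq2 1.42.0, limma-voom 3.58.1, other scalings and filters, a replicate block and leaving out each library were the alternatives. Depth limits precision little for the members, which had 954 counts or more.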

Additional observations from a re-analysis of the deposited data

Results flagged for a closer look

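Of the 22 sets of 4 values examined (10 members and the ratio of enzymes to inhibitors, in both groups), 1 held a library far from the other three by Dixon's criterion at the 95% level. Mmp12 had 49.3 CPM in A2A antagonist replicate 4 and 58.7 to 59.6 CPM in the other three libraries of that group, so that the gap took up 0.913 of the whole range. Chance flags about 1 in 20 such sets. Without this library the log2 fold change of Mmp12 was 0.069 (edgeR, adjusted p-value 0.674).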

How the results depend on the processing

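The number of called genes moved with the setting: 39 in the reported fit, 374 with DESeq2, 366 without the low-count filter, 17 with a replicate block, and 0 to 172 when leaving out 1 library (172, 5, 6 and 0 without A2A antagonist replicates 1, 2, 3 and 4, and 0 without dual replicate 3; between 1802 and 2648 genes then had an unadjusted p-value under 0.05). The count of called members was 1 (Mmp9) without the filter and 0 to 1 when leaving out 1 library (Mmp9 without dual replicate 4), and the count over the related genes was 2 with DESeq2, 2 with library totals only, 4 without the filter and 0 to 2 when leaving out 1 library. The causes were not tested. The median log2 fold change of the members ranged from -0.0013 (without dual replicate 1) to 0.068 (without dual replicate 2) over the libraries left out. Directions changed for values near 0: Mmp2 was 0.010 with library totals only, 0.0031 with a minimum count of 50 and 3.59e-05 with DESeq2, and Plat was -5.70e-05 without the filter. Leaving out 1 library gave ranges of -0.058 to 0.071 for Mmp2, -0.018 to 0.038 for Timp1, -0.020 to 0.036 for Mmp14, -0.0063 to 0.086 for Mmp15 and -0.012 to 0.034 for Plat. Mmp3, Mmp9, Mmp12, Mmp13, Timp2, Timp3, Timp4, Serpinb2 and Adam8 kept their sign under all 15 alternatives. Leaving out 1 library moved the ratio of enzymes to inhibitors by less than the spread between libraries and changed the place of 0 members in the order of levels. Library totals and the FPKM of the authors rescale whole libraries and so cannot change that ratio.

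The replicate numbers of the titles did not pair the libraries: deviations of same-numbered libraries correlated at -0.16, -0.047, -0.090 and -0.21 over 11051 genes, so no library correlated best with its own number. With the replicate block 17 genes and 0 members were called, with an adjusted p-value of 0.0543 for Mmp9.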
